A study of Mus musculus with 10 samples.

Results

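The Hipk kinases counted in mouse gastrocnemius (GAS) were Hipk1, Hipk2 and Hipk3, which are 3 of the 21160 genes and hold 10 of the 52423 segments in a table of read counts on 3′UTR segments of at most 500 bp. The members were listed by symbol, and they were chosen by the gene-level fold change and lack of overlap in the same comparison, because Hipk2 had the largest decrease among genes whose libraries did not overlap between the groups and that had at least 10 counts per library on average. Its log2 fold change, ASO over CTRL, was −5.60, and the next gene in that order was Pdpr with −4.61. The levels of the 3 genes are therefore given as a description, without a test.

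Homeodomain-interacting protein kinases (HIPKs) are protein kinases of the CMGC group, close to the DYRK kinases. They reside largely in the nucleus and phosphorylate transcription factors and co-repressors, among them p53, CtBP, Pml and the acetyltransferase Ep300, and in this way act on the response to DNA damage, on Wnt signaling and on Hippo signaling. Hipk2 is the best studied member, a pro-apoptotic kinase that is kept low by ubiquitination through Siah ligases. Hipk1 and Hipk3 share much of its kinase domain, and Hipk3 is also known as the host gene of a circular RNA, which holds no 3′UTR and is not measured by counts there.

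GAS was taken from male wild-type C57BL/6J mice with diet-induced obesity (DIO), of the substrain C57BL/6JBomTac by the study's methods, which had been given a high-fat diet from 9 weeks of age for 9 weeks before treatment. The stated criterion of more than 40 g at that point is not met by the starting weights tabulated for some control mice, and treated mice started heavier on average, so the groups also differed in initial weight, whose part was not tested. The age at sampling is given as 30 weeks, although the intervals in the labels add up to a slightly older age. A total of 5 mice received the anti-miR-22 antisense oligonucleotide (ASO) at 10 mg/kg, subcutaneously and once weekly for 14 weeks, and 5 mice (CTRL) received 0.9% saline on the same schedule. Neither group was on a normal diet, and none received an oligonucleotide of unrelated sequence, so an effect of miR-22 inhibition and an effect of any oligonucleotide cannot be told apart. Poly(A) RNA was sequenced as stranded paired-end libraries, and the comparison asks how the muscle transcriptome differs when miR-22 is blocked.

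Each library held between 1606909 and 2116720 counts in CTRL and between 2239186 and 2632560 with the ASO, so the treated libraries were the deeper ones throughout. Levels are CPM, counts relative to the library size scaled by TMM, a normalization on the bulk of genes, and errors are SDs over 5 libraries. Markers of skeletal myofibers summed to between 44200 and 83400 CPM in CTRL and between 88900 and 137000 CPM with the ASO, with 3 of 5 tested markers higher, while Tnnt3 and Mylpf were listed at 0. The summed levels of satellite cell markers (49.4 to 71.3 CPM in controls, 99.5 to 130 CPM in treated mice, Calcr at 0) and of neuromuscular junction and denervation markers (27.7 to 34.2 CPM and 57.0 to 136 CPM, Chrnd at 0) were also higher in every treated library. Taken singly, only 1 of 4 tested satellite cell markers and 1 of 3 tested neuromuscular junction and denervation markers were called higher. The groups overlapped for macrophage (261 to 1610 CPM in controls, 74.0 to 575 CPM in treated mice, Adgre1 at 0), endothelial, fibroblast (Dcn at 0), adipocyte, Schwann cell and blood markers (Alas2 at 0). Among single markers, 1 of 6 tested for macrophages and 1 of 4 tested for fibroblasts were called lower. The part of these differences in the Hipk levels was not tested, and in whole muscle fewer cells of a type and less RNA per cell cannot be told apart. The table counts neither miR-22 nor its host transcript, so the labels could not be checked by the targeted miRNA.

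The sequences that bear on the comparison are the miRNA that the ASO blocks and its seed matches in the 3′UTRs of the 3 kinases. In mature mmu-miR-22-3p (RefSeq, GRCm38.p6) the capitals mark the seed, bases 2 to 8. In the Hipk2 windows (GRCm39, minus strand, written 5′ to 3′ of the transcript) they mark the match to it, GGCAGCT, which was searched on the transcript strand only.
mmu-miR-22-3p: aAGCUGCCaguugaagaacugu
Hipk2 site, chr6:38673581-38673610: agtcttaggaatGGCAGCTttgccaggcag
Hipk2 site, chr6:38673568-38673597: gcagctttgccaGGCAGCTgcctcagccgc
Hipk2 site, chr6:38671849-38671878: tttggaccctttGGCAGCTtctctcacatc
The longest annotated 3′UTR exon of Hipk2 (GENCODE M39, chr6:38667714-38675072) was 7359 bp long and held these 3 matches, 5878, 5865 and 4146 bp upstream of the annotated gene end. Those of Hipk1 (4619 bp) and Hipk3 (3848 bp) held 0. The letters GGCAGCT occurred in 18.1% of the 21713 longest 3′UTR exons of all genes and in 35.0% of the 5329 exons of at least 3000 bp. The other 7-base match, GCAGCTA, was in none of the 3 kinases, in 10.9% of all exons and in 23.2% of the long ones. A match is a description of letters and does not show that the miRNA binds there.

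Hipk2 was counted on a single segment, chr6:38671325-38671824 on the minus strand of GRCm39, which lies within its annotated 3′UTR. In CTRL replicates 1 to 5 it held 50, 64, 170, 154 and 270 counts, and in ASO replicates 1 to 5 it held 4, 7, 3, 1 and 2 counts. Every treated library lay below every control, as was so for 13.4% of the 7819 genes that passed the filter on low counts, and this lack of overlap was among the values by which the gene was chosen. The levels were 23.6, 29.8, 84.0, 90.9 and 152 CPM in CTRL and 1.93, 2.97, 1.27, 0.417 and 0.943 CPM with the ASO. CTRL replicates 1 and 2 were the lowest of their group, and the highest control was 6.43-fold above the lowest.

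The mean level of Hipk2 fell from 76.0 ± 52.1 to 1.51 ± 0.986 CPM (SD, n = 5 each), a ratio of 50.3, and the fit gave −5.60 on the log2 scale with a standard error of 0.62. The treated mean rests on 17 counts in all, against 708 in CTRL, and 3 of the treated libraries were at or under a floor of 3 counts. Other settings of the fit gave log2 fold changes between −5.88 and −5.32, the lowest from the fit to the most distal segment of each gene. For Hipk2 that fit used the same single segment with another scaling, so the value was not checked on another segment. Leaving out 1 library at a time gave values between −5.98 (without ASO replicate 2) and −5.19 (without CTRL replicate 5).

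The counted Hipk2 segment ends 3611 bp upstream of the annotated gene end, and the table holds no Hipk2 segment nearer to that end. The 3 other Hipk2 segments, at the start of the same 3′UTR, share nearly all of their bases with each other, with 4, 0 and 0 unique bases, and were at 0 counts in every library. A count of 0 on such a segment says nothing about the transcript. Hipk2 transcripts that run to the annotated end were therefore measured here only as far as their reads fell on the upstream segment. The 3 seed matches lie 5′ of the counted segment and outside it, the nearest of them just before its first base.

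The last 50 bases of the counted Hipk2 segment held neither AATAAA nor ATTAAA, the hexamers that direct cleavage and polyadenylation, whereas the last 50 bases of the annotated gene held AATAAA 19 bases before its end. Among 28349 distinct segments of 500 bp, 62.0% held 1 of these hexamers in their last 50 bases on the transcript strand. The segment had 47.4% A and T bases, below the 70.4% and 66.6% of the segments at the ends of Hipk1 and Hipk3.

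Hipk1 was counted on 3 segments of chromosome 3, all on the minus strand. Summed over them, it held 99, 129, 114, 119 and 97 counts in CTRL and 88, 117, 198, 126 and 93 counts with the ASO. The groups overlapped, with ASO replicate 3 above all others. The level was 57.6 ± 8.6 CPM in CTRL and 54.5 ± 16.9 CPM in treated mice (SD, n = 5 each). The log2 fold change was −0.08 (standard error 0.20), and it ranged from −0.26 to 0.23 and changed sign with the scaling and the segments used.

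The segments of Hipk1 differed from each other. The one at the annotated gene end, chr3:103647131-103647630, held 78.6% of the counts and had 39.1, 47.6, 35.6, 40.1 and 16.8 CPM in CTRL and 38.6, 43.3, 80.8, 47.2 and 40.6 CPM with the ASO. These ranges overlapped, with means of 35.8 ± 11.5 and 50.1 ± 17.4 CPM and a log2 fold change of 0.53 (standard error 0.28). Farther upstream the order of the groups was the opposite.

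The Hipk1 segment chr3:103652472-103652971, which ends 5344 bp upstream of the gene end and lies only partly in an annotated 3′UTR, held 13.7% of the gene's counts. Its level was 4.72, 7.46, 13.8, 15.3 and 26.4 CPM in CTRL and 2.90, 3.82, 1.69, 4.59 and 2.36 CPM with the ASO. All treated libraries lay below all controls, although the highest treated library, with 4.59 CPM, was close to the lowest control, with 4.72 CPM. The means were 13.5 ± 8.41 and 3.07 ± 1.15 CPM, a log2 fold change of −2.06 (standard error 0.46). The third segment, chr3:103650878-103651263, ends 3750 bp upstream and held 7.71% of the counts, with 6, 11, 14, 25 and 20 counts in CTRL and 2, 6, 3, 2 and 2 counts with the ASO. It was too thinly covered for the fit, and its mean level was 8.17 ± 4.80 CPM in CTRL and 1.31 ± 0.71 CPM with the ASO, again without overlap. The remaining Hipk1 segment lies inside the third, has 0 unique bases and was at 0 counts.

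Hipk3 was more abundant than Hipk1 on segments of equal length. Its 500 bp at the annotated end had 389 ± 136 CPM in CTRL, where those of Hipk1 had 35.8 ± 11.5 CPM. These ranges did not overlap in either group. The Hipk2 segment, also of 500 bp but upstream, had 76.0 ± 52.1 CPM in CTRL and overlapped with Hipk1 there. With the ASO its highest library, at 2.97 CPM, was below the lowest of Hipk1 at its end, 38.6 CPM. Hipk2 had no segment at its annotated end, so its rank beside Hipk1 and Hipk3 was not measured. Hipk4, the remaining paralog, was at 0 counts on 2 segments with 5 and 0 unique bases, which leaves its level unmeasured.

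Summed over its segments, Hipk3 held 1158, 1362, 723, 691 and 660 counts in CTRL and 961, 1247, 1259, 1055 and 1013 counts with the ASO. The groups overlapped, and in CTRL replicates 1 and 2 were well above replicates 3 to 5. The level was 463 ± 122 CPM in CTRL and 489 ± 40.8 CPM with the ASO, a log2 fold change of 0.08 (standard error 0.17) that ranged from −0.09 to 0.16 and was negative with scaling by total counts.

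The 2 segments of Hipk3 moved apart in the same way as those of Hipk1. The one at the gene end, chr2:104256826-104257325 on the minus strand, held 92.2% of the counts and had 491, 575, 295, 318 and 267 CPM in CTRL and 455, 519, 526, 435 and 472 CPM with the ASO. These overlapped, and the log2 fold change was 0.35 (standard error 0.21). The short segment chr2:104260126-104260199, of 74 bp and ending 3312 bp upstream, held 7.81% of the counts. Its level was 54.7, 59.7, 61.7, 89.7 and 103 CPM in CTRL and 9.17, 10.6, 6.77, 5.43 and 6.13 CPM with the ASO. Every treated library was far below every control, with means of 73.8 ± 21.4 and 7.62 ± 2.19 CPM and a log2 fold change of −3.23 (standard error 0.25). Both segments lie under Gm35606 on the opposite strand, and the strand setting of the counting is not given in the sources used here. Of the 6 segments that held counts, AATAAA was within the last 50 bases of 3, the Hipk1 segments at and 5344 bp from the end and the short Hipk3 segment, ATTAAA was in the Hipk3 segment at the end, and neither was in the other two.

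**Figure D1:**
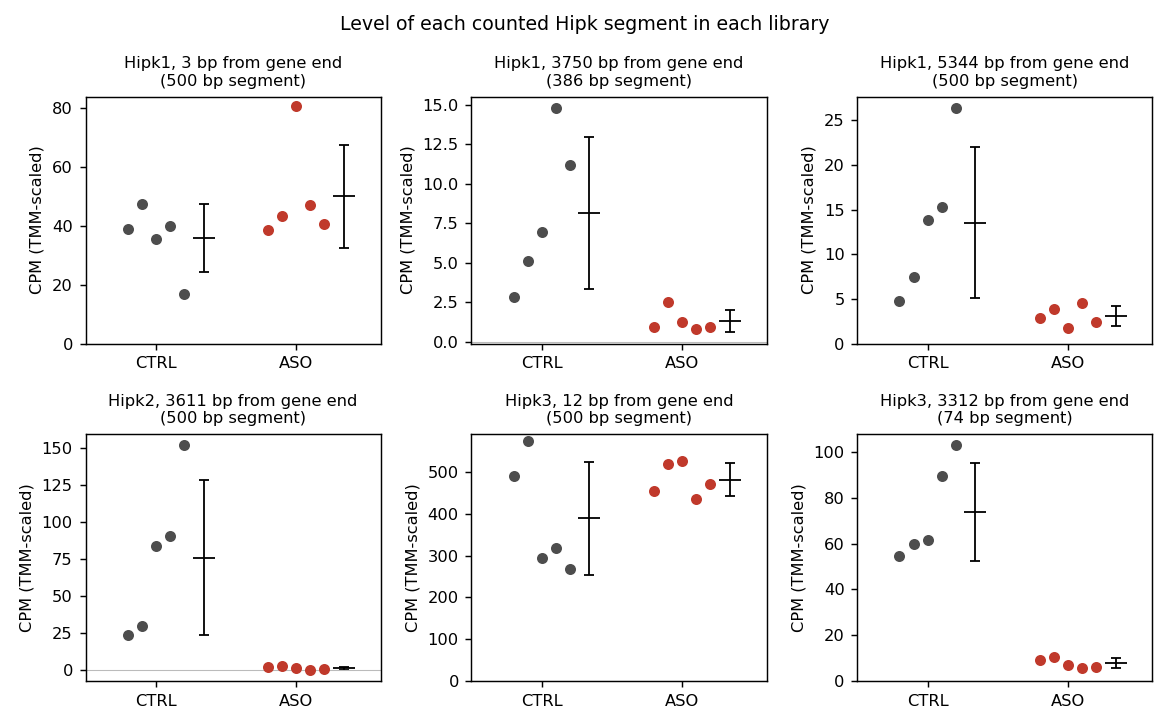
CPM of the 6 counted Hipk segments in each library (replicates 1 to 5 from left to right within CTRL and ASO), with the group mean and SD as a bar. The 4 segments that end more than 3000 bp upstream of the annotated gene end were lower in every treated library, with treated means of 1.31, 3.07, 1.51 and 7.62 CPM, and the 2 segments at the gene ends of Hipk1 and Hipk3 overlapped between the groups.

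**Figure D2:**
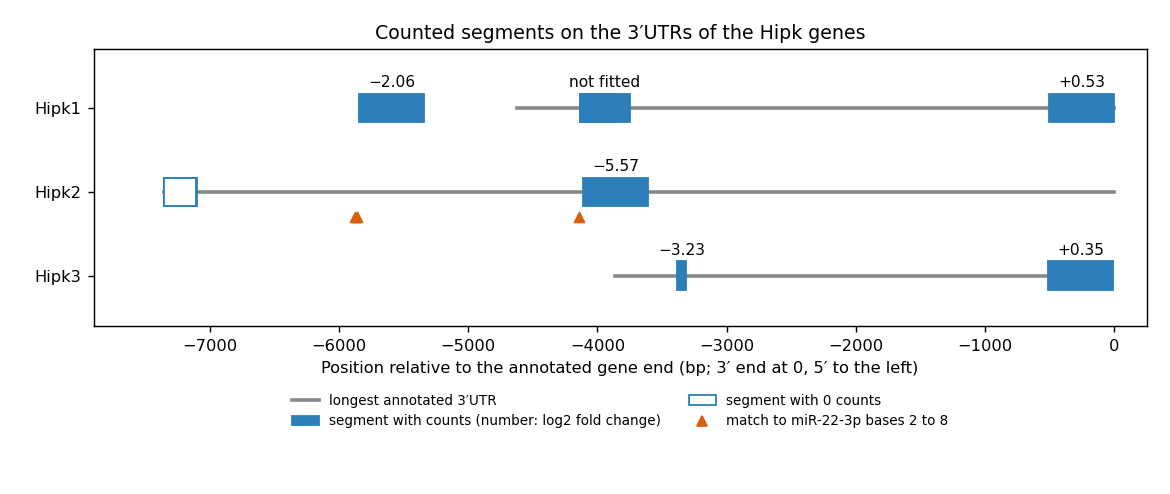
Position of the Hipk segments along each gene's longest annotated 3′UTR, in bp from the annotated gene end (0, at the right), with the log2 fold change (ASO over CTRL) above each counted segment. Blue boxes are segments with counts, open boxes Hipk2 segments at 0, triangles the 3 seed matches of Hipk2, and the segment marked as not fitted had too few counts. The values are 0.53 and 0.35 at the ends of Hipk1 and Hipk3, against −2.06, −5.57 and −3.23 upstream.

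Upstream segments of many other genes were also lower with the ASO. All 4 counted Hipk segments that end over 3000 bp from the gene end lay entirely below the controls. The Hipk1 segment 3750 bp upstream is not among the tested segments. Of the 5591 tested segments that end 1000 bp or more from the gene end, a nearer limit, 33.4% did so, and of the 3318 within 100 bp 2.20%. Among those over 3000 and up to 6000 bp, 41.7% were called lower in the fit to segments. The Hipk2 segment is among the values that chose the genes, and nothing is read from the count of 4. Among the 1320 tested segments that end over 3000 and up to 6000 bp from the gene end, the median log2 fold change was −0.47, with the middle 50% between −1.37 and 0.23. In that class 55 segments, or 4.17%, had a value of −3 or less, among them those of Hipk2 and Hipk3, and Hipk2 alone had a value of −5 or less. The Hipk1 segment at −2.06 was among the 13.4% with a value of −2 or less.

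Segments within 100 bp of the gene end had a median log2 fold change of 0.33, with the middle 50% between −0.02 and 0.61. The end segments of Hipk1, at 0.53, and of Hipk3, at 0.35, lay within that range. When end segments alone were fitted, which recentred the values on such segments, the log2 fold changes were 0.18 for Hipk1 and 0.03 for Hipk3. With other scalings of the fit to all segments they stayed above 0, between 0.30 and 0.60 for Hipk1 and between 0.14 and 0.42 for Hipk3, and the upstream segments stayed at −1.96 or lower. Hipk2 had no end segment to set beside these. The next 4 genes in the order of decrease, Pdpr, Tlcd4, Ccl24 and Uprt, with −4.61 to −4.08, had 0% of their counts within 100 bp of the annotated end, like Hipk2. Low shares there were common, since 79.5% of all genes called lower and 53.4% of those not called had under 20%.

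**Figure D3:**
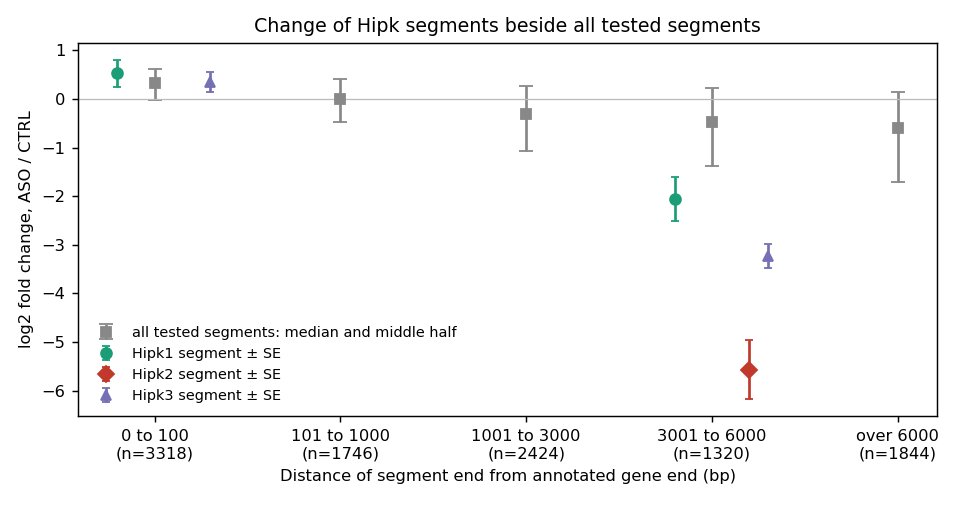
Log2 fold change (ASO over CTRL) by distance of a segment's 3′ end from the annotated gene end, in 5 classes with the number of tested segments under each. Grey squares and bars are the median and middle 50% of all tested segments, which go from 0.33 within 100 bp to −0.59 beyond 6000 bp, and colored points are Hipk segments ± standard error.

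The share of a gene's own counts that fell upstream does not depend on the library size. For Hipk1 the share on the 2 upstream segments was 16.2, 20.9, 36.8, 42.9 and 69.1% in CTRL replicates 1 to 5 and 9.09, 12.8, 3.54, 10.3 and 7.53% with the ASO, means of 37.2 ± 20.9% and 8.66 ± 3.46%. For Hipk3 it was 10.0, 9.40, 17.3, 22 and 27.9% in CTRL and 1.98, 2.0, 1.27, 1.23 and 1.28% with the ASO, means of 17.3 ± 7.90% and 1.55 ± 0.40%. The groups did not overlap for either gene, and in both CTRL replicates 3, 4 and 5 had the largest shares. These are the same 3 libraries that had the most Hipk2.

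Expressed as the log2 ratio of end to upstream counts, the shift from CTRL to ASO was 2.59 for Hipk1 and 3.61 for Hipk3. Over the 1086 genes with at least 50 counts on each side, the median shift was 1.47, and 572 genes, or 52.7%, had higher ratios in every treated library than in any control, whereas 5 genes, or 0.46%, had lower ones. A larger shift than that of Hipk1 was found in 15.6% of these genes, and a larger one than that of Hipk3 in 3.59%. Set against the end segment of Hipk3 in the same library, the log2 ratio of Hipk2 counts fell from −2.61 ± 1.61 to −8.32 ± 0.82, and against that of Hipk1 from 0.83 ± 1.61 to −5.01 ± 1.04.

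An index of the whole library was made as the median log2 ratio of end to upstream counts over the 1084 genes other than Hipk1 and Hipk3. It was 0.33, 0.47, −0.07, −0.27 and −0.56 in CTRL replicates 1 to 5 and 1.23, 1.28, 1.77, 1.48 and 1.52 in ASO replicates 1 to 5. The groups were apart, with means of −0.02 ± 0.42 and 1.46 ± 0.21. Among controls, replicates 5, 4 and 3 had the lowest index and, in that order, the highest Hipk2 level, whereas controls 1 and 2 and the treated libraries did not follow that order strictly. ASO replicates 1 and 2 had the lowest index of their group and the most Hipk2, but ASO replicate 3, with the highest index, had more Hipk2 than replicates 4 and 5, and the treated levels rest on 1 to 7 counts each. The libraries fall into 2 clusters by group, so no correlation of the index with Hipk levels is given. The part of this index in the Hipk differences was not tested, and because it separates the groups it cannot be told apart from treatment in these libraries.

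**Figure D4:**
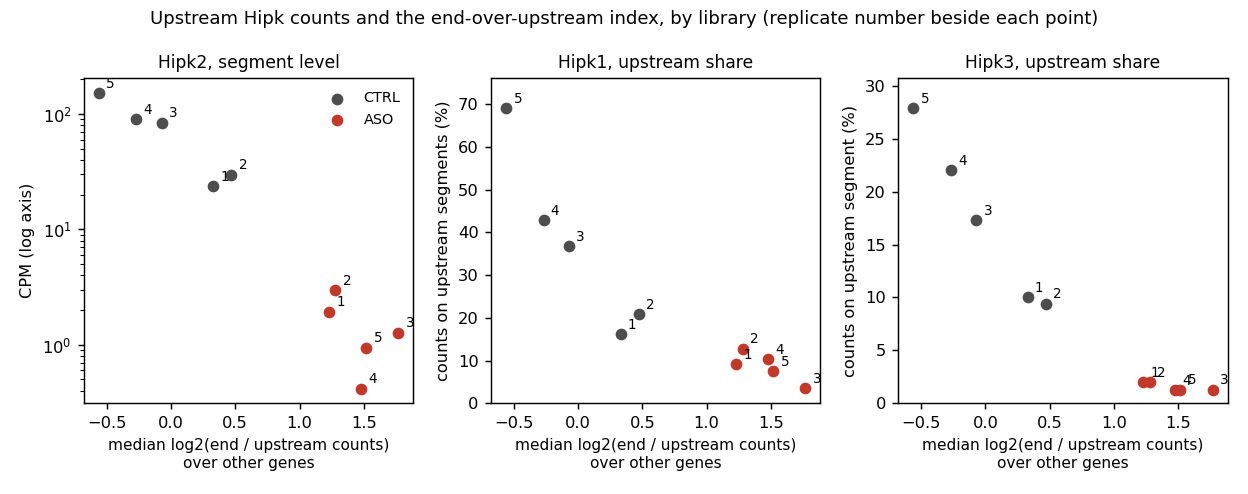
Hipk2 level (CPM, log axis) and the upstream share of Hipk1 and Hipk3 counts (%) against the median log2 ratio of end to upstream counts over other genes, 1 point per library with its replicate number. Treated libraries sit at an index of 1.23 to 1.77 and controls at −0.56 to 0.47, and within CTRL the 3 libraries with an index below 0 have the highest value in each panel.

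The genes whose level ran most like that of a kinase were taken by Pearson's r of log2 CPM over the 10 libraries, among 7743 genes. For Hipk2 they included Eif5, a translation initiation factor, with r = 0.993, and Gnl3l, a nucleolar GTPase, with r = 0.987. Their log2 fold changes were −1.27 and −3.74, and 0% of the counts of either lay at the annotated end, where low shares were common among all genes. Over all 10 libraries r for Hipk2 includes the gap between the groups, by which the gene was chosen, so nothing is read from its size. With the group means subtracted the genes most like Hipk2 were Zbtb4 (0.961), the poly(A) polymerase Papola (0.960) and Nras (0.941).

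For Hipk1 the same measure gave Zbtb16 (0.833), Prpf4b (0.832) and Hsf2 (0.827) over all libraries, and Zbtb16 (0.969), Dcun1d3 (0.951) and Eif3g (0.945) with the group means subtracted. For Hipk3 it gave the protease Mbtps2 (0.930), Abhd17c (0.904) and Akap11 (0.902), and with the group means subtracted the ATPase Vcp (0.946) and Mbtps2 (0.928). Points share library depth, the index above and, over all 10 libraries, the split by group, so these values describe likeness only.

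Genes around the kinases were counted from 4 lists of symbols, also made with earlier results of these data known. Over all 7819 tested genes, 11.7% were higher and 17.5% lower with the ASO at an adjusted p under 0.05 from the quasi-likelihood fit of edgeR (Benjamini-Hochberg), 29.2% in all, and the median log2 fold change was −0.03. Of all genes called lower, 79.5% had under 20% of their counts at the annotated end, against 47.7% of those called higher and 53.4% of those not called.

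The list of HIPK partners and substrates had 30 tested genes of 41, of which 7 fell and 1 rose, with a median log2 fold change of 0.05. Mef2c, a muscle transcription factor, fell from 373 ± 195 to 45.4 ± 3.82 CPM (log2 fold change −3.04, adjusted p = 0.00011), and its 5 treated libraries held 89 to 120 counts where the controls held 480 to 1177. Creb1, a transcription factor activated by phosphorylation, fell from 35.9 ± 14.1 to 14.9 ± 3.06 CPM (−1.26, adjusted p = 0.0040), and Ranbp9, a scaffold protein that binds Hipk2, from 170 ± 9.66 to 95.2 ± 17.6 CPM (−0.84, adjusted p = 0.0011). On the most distal segment of each gene Ranbp9 had a smaller log2 fold change of −0.44. The promoter-binding repressor Zbtb4 fell from 111 ± 32.3 to 51.4 ± 11.5 CPM over all segments (−1.10, adjusted p = 0.0033), but had a log2 fold change of 0.12 (adjusted p = 0.82) on end segments alone. Pml and Ctbp1 were lower as well, with −1.50 and −0.88. All 7 genes that fell had under 20% of their counts at the annotated end, as had Ep300, the 1 gene that rose, and 9 of the 22 genes not called. Ep300 rose from 41.9 ± 13.3 to 68.4 ± 18.4 CPM (0.70, adjusted p = 0.035) and was the least stable of these calls. It was lost with libraries drawn down to the lowest total, on the most distal segments and in 7 of the 10 fits that left out 1 library (CTRL replicate 1, 3, 4 or 5, or ASO replicate 2, 3 or 5). It was also lost with scaling by total counts, where edgeR called 0 genes of the list higher and 8 lower, and 2 were higher at an unadjusted p under 0.05. With RLE size factors the split was 5 higher and 7 lower, with upper quartile scaling 8 and 7, and on the most distal segment of each gene 3 and 2. Mef2c and Creb1 had no value in that last fit.

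Of the related Dyrk, Clk and Prp4 kinases, a list that also holds Srpk kinases, 10 of 14 genes were tested, 3 rose and 1 fell, with a median of 0.23. Dyrk1a, a kinase of splicing factors and of NFAT, rose from 88.1 ± 29.0 to 196 ± 33.1 CPM (log2 fold change 1.15, adjusted p = 0.0023), Srpk3, a muscle kinase of splicing factors, from 38.1 ± 8.91 to 66.6 ± 12.4 CPM (0.81, adjusted p = 0.0092), and Dyrk2, a kinase of p53, from 113 ± 18.4 to 178 ± 19.6 CPM (0.66, adjusted p = 0.0049). Srpk2 fell from 31.6 ± 7.38 to 18.0 ± 1.57 CPM (−0.81, adjusted p = 0.0068). On end segments alone edgeR called 0 of the 6 tested genes of the list, 2 at an unadjusted p under 0.05 and no other tool run, with log2 fold changes of 0.47, 0.51 and 0.37 for the 3 kinases that rose over all segments. Srpk3 and Dyrk2 had 100% of their counts on end segments, so for them that fit used the same counts with another scaling. Under 20% of counts at the annotated end was found for 1 of the 3 that rose, 0 of the 1 that fell and 3 of the 6 not called. Srpk2, the gene that fell, was just over that limit with 20.3% and had no value on end segments alone.

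The list of β-catenin and Hippo genes, pathways on which HIPKs act, had 31 tested genes of 45, of which 11 fell and 4 rose, with a median of −0.34. Tead1, the DNA-binding partner of YAP, fell from 125 ± 85.4 to 8.19 ± 3.24 CPM (log2 fold change −3.90, adjusted p = 0.00032), and the Hippo kinase adaptors Mob1b and Mob1a fell as well, with log2 fold changes of −3.76 and −1.70 (adjusted p = 0.00060 and 0.0030). Mob1b held 36 to 74 counts in CTRL and 0 to 8 counts with the ASO, so the size of its change rests on counts near the floor. Ctnnb1, which encodes β-catenin, fell from 664 ± 157 to 191 ± 55.9 CPM (−1.80, adjusted p = 0.00037). Of the 11 genes, 8 had under 20% of their counts at the annotated end, as had 1 of the 4 that rose and 6 of the 16 not called. Amotl1, which binds YAP, rose from 345 ± 55.2 to 626 ± 129 CPM (0.86, adjusted p = 0.0034), and the Wnt signal transducers Dvl3 and Dvl1 and the co-receptor Lrp6 rose by 0.59, 0.55 and 0.57. Lrp6 was not called in 7 of the 10 fits that left out 1 library (any of CTRL replicates 1, 2, 4 and 5 and ASO replicates 1, 3 and 5), and Dvl3 without CTRL replicate 5. With scaling by total counts 2 genes were higher and 13 lower, without Lrp6 and Dvl3, on the most distal segment of each gene 3 and 3, and on end segments alone 1 and 1. Tead1, Ctnnb1, Mob1a and Mob1b had no value in either of these segment fits.

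Of p53 target genes, 20 of 28 were tested, 1 rose and 2 fell, with a median of 0.20. Bax, a pro-apoptotic Bcl-2 family protein, rose from 19.5 ± 3.10 to 31.1 ± 2.15 CPM (log2 fold change 0.67, adjusted p = 0.0076). On the most distal segment of each gene Bax had 0.42 and was not called, with 0 genes of the list higher and 1 lower. Tigar, a regulator of glycolysis, and Rrm2b, a ribonucleotide reductase subunit, fell by 0.60 and 0.57 on the log2 scale (adjusted p = 0.021 and 0.018). The cell cycle inhibitor Cdkn1a had a log2 fold change of −1.18 and was not called (adjusted p = 0.12). Tigar was not called in 4 of the 10 fits that left out 1 library (CTRL replicate 2, 4 or 5, or ASO replicate 3) and had a positive value on end segments, 0.11. Rrm2b was not called without ASO replicate 1 or with the replicate number as a block, where 2 genes of the list were higher and 1 lower. With RLE or upper quartile scaling 2 were higher and 2 lower, and without CTRL replicate 2 there were 3 and 1. Under 20% of counts at the annotated end was found for Bax, for 0 of the 2 that fell and for 5 of the 17 not called.

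**Figure D5:**
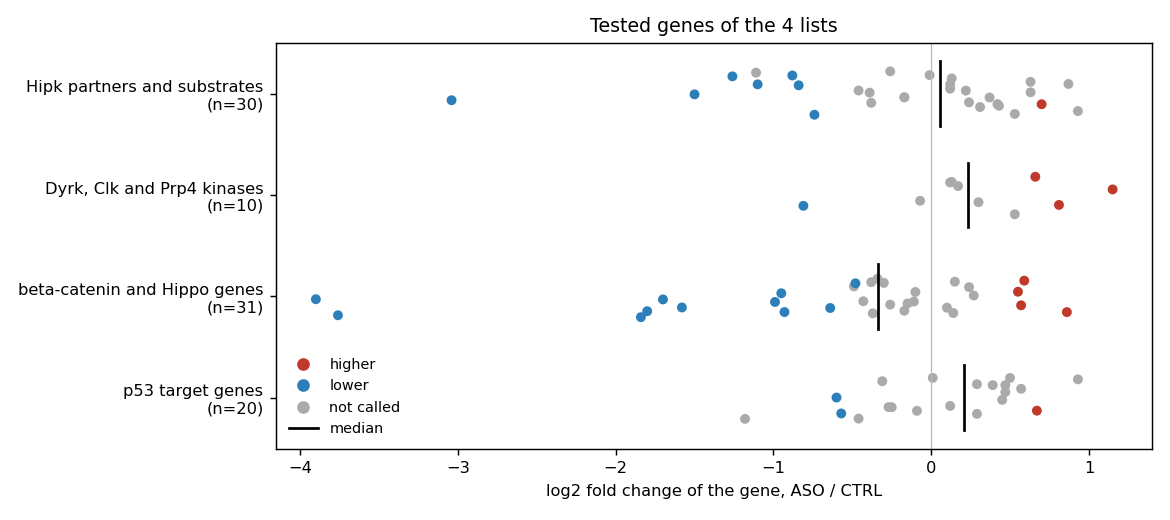
Log2 fold change (ASO over CTRL, gene level) of each tested gene of the 4 lists, with the list median as a black line. Red and blue points are genes called higher and lower at an adjusted p under 0.05 from edgeR, and grey points were not called. The β-catenin and Hippo list has its median at −0.34, with Tead1 at −3.90 and Mob1b at −3.76 farthest to the left, and the medians of the others lie between 0.05 and 0.23.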

How the data were processed

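The authors used fastp for trimming, STAR for alignment to GRCm39 and featureCounts for counting read pairs (Gencode M25), and kept only the terminal 500 bp of 3′UTRs. The deposited values are raw counts per segment, without normalization. The columns of 10 libraries were used, and 4 other per-sample columns were not. Segments were matched by transcript to GENCODE M39 on GRCm39 (62 of 52423 unmatched, 0.0197% of counts), summed per gene, and fitted with edgeR 4.0.16 (TMM, filterByExpr by group, quasi-likelihood test, Benjamini-Hochberg adjustment at 0.05). Segments were fitted separately in the same way. A gene's annotated end is its longest in M39 and need not be the one used in muscle. Ratios of segments had 0.5 added to each count, and upstream segments ended at least 1000 bp from the annotated gene end. Members and gene lists were chosen with earlier results of these data known. Named list genes are up to 4 called in each direction with the lowest p-values, and others named (Pml, Ctbp1, Cdkn1a) were chosen after their values were seen. Some genes that these rules name are not reported here. Alternatives were RLE, total counts, upper quartile, other filters, DESeq2 1.42.0, limma-voom 3.58.1, a replicate block, libraries drawn down to 1606909 counts, the most distal segment of each gene, and each library left out. End segments alone and the scalings of the segment fit were added after seeing the data. Procedures were tested on simulated data. Changes of 1 on the log2 scale were recovered for 56.4% of changed genes and 30.9% of changed segments. Changes of 2 were recovered for 97.0% and 97.8%. A gene or segment not called may therefore still differ. The labels number 5 replicates a group without naming the mouse of each, so p-values measure the spread between these libraries. A floor of 3 counts covers counting error only.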

Additional observations from a re-analysis of the deposited data

Results flagged for a closer look

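Of 20 groups of 5 values checked for a library far from the others, 3 had one, where chance gives about 1 in 20, and the 3 are not independent because they are from 1 gene. Hipk1 over all segments was 83.7 CPM in ASO replicate 3, and the next treated library had 52.6 CPM. The Hipk1 segment at the gene end was 80.8 CPM in the same library, where the next had 47.2 CPM. Without ASO replicate 3 the log2 fold change of Hipk1 was −0.25 in place of −0.08. The Hipk1 segment 3750 bp upstream was 2.55 CPM, from 6 counts, in ASO replicate 2, and the next treated library had 1.27 CPM.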

How the results depend on the processing

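Hipk2 kept its direction in every fit that gave a value, and no value could be had for it on end segments or with at least 10 counts required in every library. Hipk1 and Hipk3 stayed near 0 with either sign, and without 1 library they ranged from −0.25 to 0.02 and from −0.01 to 0.22. The counts of calls differed most in the fits to the most distal segments or to end segments. With the most distal segment of each gene, 808 genes were called of 5492 tested (2281 of 7819 with all segments), with 5 partners and substrates (3 higher and 2 lower, in place of 1 and 7), 0 Dyrk, Clk and Prp4 kinases by edgeR (2 of 7 at an unadjusted p under 0.05), 6 β-catenin and Hippo genes (3 and 3, in place of 4 and 11) and 1 p53 target. Zbtb4 and Tigar turned positive there (0.16 for both) and on end segments (0.12 and 0.11). On end segments alone, 280 of 3343 were called, with 3, 0, 2 and 1 in the lists. Fewer genes entered both fits, and each was scaled on its own segments, which recentred the values. Mef2c, Creb1, Srpk2, Tead1, Ctnnb1, Mob1a and Mob1b had no value in either fit, so their falls were not tested there. Dyrk2, Srpk3, Amotl1 and Lrp6 had 100% of their counts on end segments. Their log2 fold changes were nevertheless 0.37, 0.51, 0.58 and 0.26 in that fit, in place of 0.66, 0.81, 0.86 and 0.57. For these genes the same counts were scaled differently, and for the others the part of scaling and of segments was not tested. With upper quartile scaling 15 partners and substrates were called in place of 8, and DESeq2 called 13 of them and 6 p53 targets in place of 3. Scaling by total counts moved the median over all tested genes (log2) from −0.03 to −0.20, with 540 genes higher and 1815 lower in place of 916 and 1365, and upper quartile scaling gave 1261 and 1207.

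Without 1 library, the total ranged from 1825 to 2373, partners and substrates from 6 to 13 (13 without ASO replicate 4), Dyrk, Clk and Prp4 kinases from 4 to 5, β-catenin and Hippo genes from 9 to 16 (9 without CTRL replicate 4, CTRL replicate 5 or ASO replicate 5) and p53 targets from 2 to 6 (6 without ASO replicate 4, 5 without ASO replicate 5). Same-numbered libraries did not deviate together (r from −0.427 to 0.164), and 1 of 5 correlated best with its own number. With the replicate number as a block, 1838 genes were called, the lists had 8, 4, 12 and 3 (the p53 targets 2 higher and 1 lower, in place of 1 and 2), and the log2 fold changes of Hipk1, Hipk2 and Hipk3 were −0.11, −5.39 and 0.11.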
